A study of Mus musculus with 12 samples.

Results

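The regions described here lost 5-hydroxymethylcytosine (5hmC) between the proliferating progenitors and the neurons of the embryonic mouse cortex. They were chosen by their measured 5hmC levels in these 2 cell types: a region belonged when its level in proliferating progenitors was 4.5 or more and its level in neurons was lower by 0.9 or more. A level is the authors' mean for a cell type on a log2 scale of normalized reads, so that 4.5 stands for 22.6 reads and a difference of 0.9 for a 1.87-fold change. Of the 47478 5hmC peaks in the table, 947 (1.99%) met the rule, and of the 30308 peaks with a level of 4.5 or more in proliferating progenitors 3.12% did. The fall itself is therefore a description of how the regions were picked, and is not a finding.

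Cells were sorted at E14.5, a stage of mid-neurogenesis, from the cortex of embryos heterozygous for both a Btg2-RFP and a Tubb3-GFP reporter. Proliferating progenitors (PP) carried neither reporter, differentiating progenitors (DP) were RFP+ and GFP-, and neurons (N) were GFP+ with or without RFP. 5hmC and 5-methylcytosine (5mC) were each measured by immunoprecipitation and sequencing of DNA from all 3 cell types, with 6 immunoprecipitated and 6 input samples in the series. No knockout, treatment or other genotype enters these comparisons. The tables give 1 mean per cell type over the study's 3 biological replicates. No replicate values, errors or read counts per region were at hand, so that every value below is a description without a test. The number of reads behind a single value is unknown. The expression values that the authors joined to the nearest gene have no stated scale, and are compared only between cell types of the same gene. On that scale the sort markers followed their labels, with Btg2 at 19335, 38556 and 7484 and Tubb3 at 3814, 25259 and 105657 in PP, DP and N, while Pax6, a transcription factor of apical progenitors, went from 25720 in PP to 1212 in N. The PP gate was defined by the absence of both reporters, which does not by itself remove cells outside the neural lineage.

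5hmC is made from 5mC by the TET dioxygenases. It can be further oxidized and replaced by unmodified cytosine, or diluted when DNA replicates, and it is abundant in neurons, where it lies over gene bodies and distal regulatory elements. A region can thus lose 5hmC while regaining 5mC, while losing both marks, or while 5mC stays as it was, and the 5mC table allows these outcomes to be told apart only where both marks formed a peak.

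Most of the regions lay away from start sites, and the letters of only a few could be shown. Of the 947 regions, 8 (0.845%) reached into the 250 bases before a RefSeq transcription start, against 0.706% of all peaks with a PP level of 4.5 or more. The first 3 stretches below are the longest that lay before a coding gene of known role, followed by the stretch with the highest CpG density. They were picked after their values were seen. Letters are from RefSeq (GRCm38.p6, the assembly of mm10), on the strand of the gene, with every CpG, the dinucleotide that carries most of the methylation, in capitals.
Pcca promoter: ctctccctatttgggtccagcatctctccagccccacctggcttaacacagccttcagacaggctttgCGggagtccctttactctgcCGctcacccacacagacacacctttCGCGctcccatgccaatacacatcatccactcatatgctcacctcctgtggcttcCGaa
Zbtb7b promoter: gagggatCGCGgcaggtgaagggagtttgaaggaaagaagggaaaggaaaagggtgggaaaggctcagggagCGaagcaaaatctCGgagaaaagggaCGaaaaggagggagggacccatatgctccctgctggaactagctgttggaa
Cln3 promoter: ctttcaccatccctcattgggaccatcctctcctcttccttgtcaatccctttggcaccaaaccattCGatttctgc
Fam178b promoter: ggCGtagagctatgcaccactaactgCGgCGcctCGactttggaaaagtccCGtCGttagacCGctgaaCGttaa

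The stretch before Pcca, which encodes a subunit of propionyl-CoA carboxylase, runs over chr14:122484193-122484364 on the plus strand, with 5hmC at 5.02 in PP, at 4.80 in DP and at 4.02 in N. It holds 5 CpGs in 172 bases. The one before Zbtb7b, a zinc finger transcription factor, runs over chr3:89393480-89393628 on the minus strand with 5 CpGs in 149 bases, and its level went from 5.28 through 4.55 to 4.19. The stretch before Cln3, a lysosomal membrane protein, covers chr7:126585991-126586067 on the minus strand with 1 CpG, at levels of 5.42, 5.38 and 4.46. The Fam178b stretch at chr1:36683359-36683433 on the minus strand holds 8 CpGs, or 10.7 per 100 bases, against a median of 2.40 over the 32851 RefSeq promoter windows, and its level was 6.21, 5.996 and 4.93. These stretches thus range from CpG-poor to CpG-dense, and the regions they belong to fell by 0.995, 1.09, 0.96 and 1.29. The rule asks every region to fall by 0.9 or more, so that the likeness of these falls follows from the choice. CpGs were counted in the printed stretches only, and a link between CpG content and the fall was not tested.

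The regions had moderate 5hmC in PP and less in N. The median went down from 4.84 in PP through 4.49 in DP to 3.76 in neurons, which in normalized reads is 28.6 in PP against 13.5 in N. The same medians over all peaks with a PP level of 4.5 or more were 5.05, 5.01 and 4.93. The median fall from PP to N was 1.04, or 2.06-fold, with an interquartile range of 0.96 to 1.2, and 708 regions (74.8%) fell by less than 1.2. At the threshold, the regions just inside were those of Pde3a, Isg20 and Ccrl2, each with a fall of 0.90, and the peaks just outside were those of Gm239, Scml2 and Gm9897, with falls of 0.899, 0.899 and 0.898. Few sites lost nearly all of their signal: 95 regions fell by 1.5 or more, 35 by 2 or more, and 3 ended below a level of 1.

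**Figure D1:**
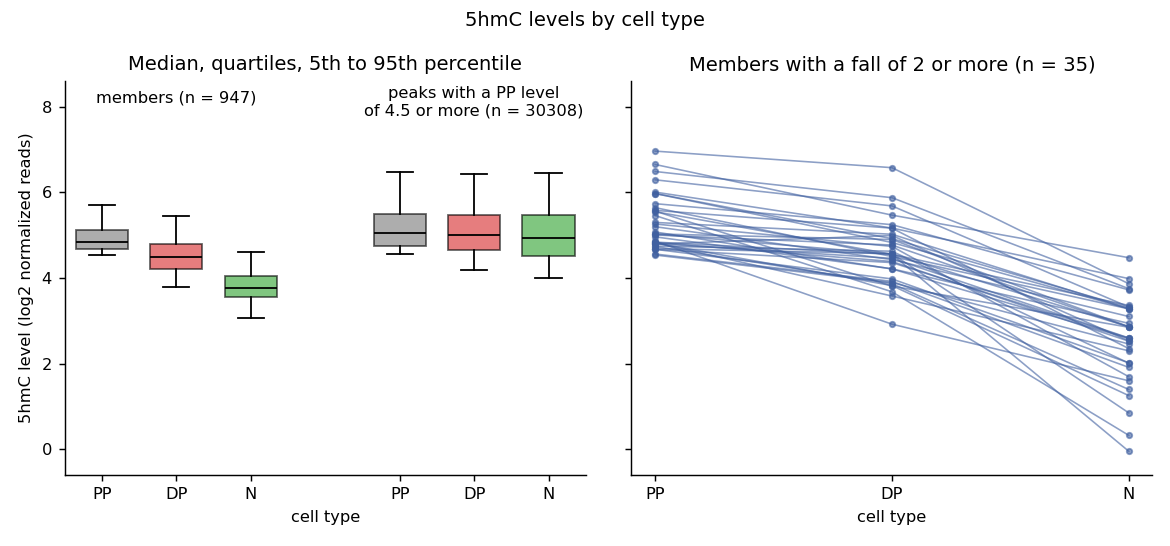
5hmC level (log2 normalized reads) by cell type. Left, boxes give the median and quartiles and whiskers the 5th to 95th percentile over the 947 members and over the 30308 peaks with a PP level of 4.5 or more; right, each line is 1 of the 35 members with a fall of 2 or more. The members' median steps down from 4.84 through 4.49 to 3.76, and the steeper part of most lines on the right lies between DP and N.

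The largest falls belonged to single sites within or beside genes. The site in Setbp1, which encodes a SET-binding protein, went from 5.46 in PP to 3.68 in DP and 0.32 in N. The site past the end of Adamts20, a secreted metalloprotease of the extracellular matrix, stood at 4.84, 4.55 and -0.05, the lowest N level in the table. That site kept nearly its full level in DP. Next came the sites annotated to D930049A15Rik (4.69, 4.57 and 0.85), inside the RefSeq gene Zmiz1, and to Ccdc129 (5.26, 4.74 and 1.69), followed by the site in Trim2, a ubiquitin ligase of neurons (4.82, 3.82 and 1.25). The site annotated to Crb2, a polarity gene of radial glia, fell from 5.58 and 5.16 to 2.35 and lies within Dennd1a. The site annotated to Dpy19l1, a gene with a role in the radial migration of cortical neurons, had the highest PP level of all members. It fell from 6.96 to 6.58 and 3.86. Among RefSeq coding genes this site lies nearer to Dpy19l2 (14.8 kb) than to Dpy19l1 (38.9 kb). The Stx6 site, in a syntaxin gene of endosomal transport, fell from 6.29 to 5.68 and 3.32. At these sites 5hmC dropped at the step from DP to N, although those of Setbp1, Trim2, Stx6 and Gm14117 (4.86, 2.92 and 1.60) had also fallen by 0.58 or more from PP to DP. Other sites with a high PP level kept much of it: the 3100002H09Rik site was at 6.89 in PP and still at 5.86 in N, and the Zfp507 site at 6.77 and 5.50.

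The fall lay more often in the step from DP to N than in the step before it. DP levels played no part in the choice of regions. Taking a difference of 0.58, about 1.5-fold, as a change, 541 regions (57.1%) fell only between DP and N, 219 (23.1%) only between PP and DP, 55 at both steps, and 132 at neither step alone. Counting each step whether or not the other also fell, 274 regions (28.9%) fell from PP to DP and 596 (62.9%) at the later step, where 5.59% and 7.31% of all peaks with a PP level of 4.5 or more did; the rule, which asks for a large overall fall, raises both shares among the members. DP had covered a median of 35.3% of the fall, with an interquartile range of 17.3% to 55.2%, and in 294 regions (31.0%) it had covered more than 50%. Among other peaks with a PP level of 4.5 or more, the median share was 41.2% at a fall of 0.3 to 0.9. It was 28.1% at a rise of 0.3 to 0.9 and 38.0% at a larger rise. A change that lay mostly after DP was thus not particular to the members. DP was above PP in 84 regions (8.87%), against 36.3% of all peaks with that PP level, and below N in 18. By asking for a PP level well above that of N, the rule also lowers the share with DP above PP.

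**Figure D2:**
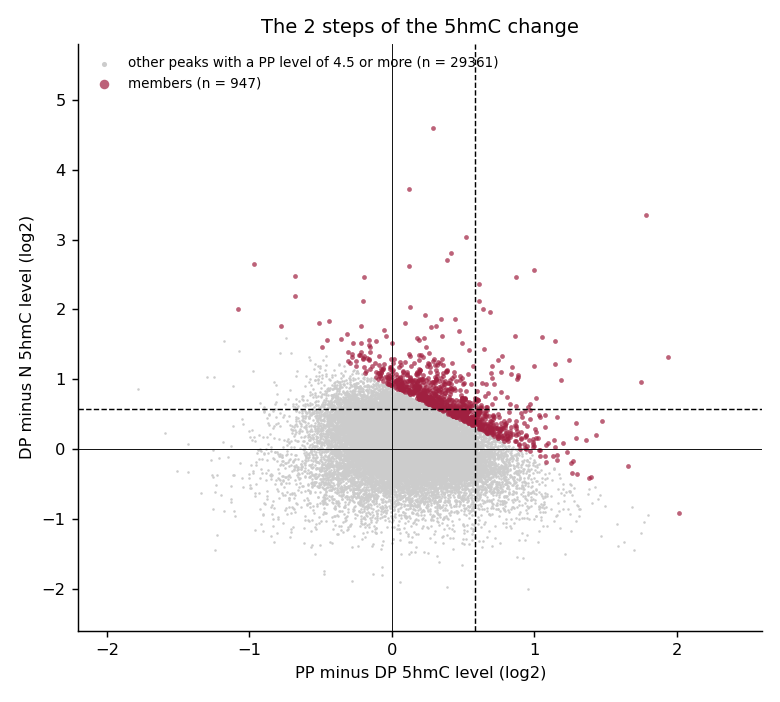
Difference in 5hmC level (log2) from PP to DP on the x axis and from DP to N on the y axis, 1 point per peak. Dashed lines mark 0.58. Of the 947 members, 541 sit above the horizontal line and left of the vertical line, and 219 sit to the right of the vertical line and below the horizontal line; their lower left edge is the rule itself.

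At 5 regions (0.53%) 5hmC rose by 0.58 or more in DP before it fell. Over the 84 regions with DP above PP the median PP minus DP difference was only -0.12. The largest rises were at Pvrl1 (5.08, 6.15 and 4.15), the cell adhesion gene also named Nectin1, and at Sfi1 (5.43, 6.40 and 3.75), a centrosomal gene. The sites of 1110012J17Rik (4.89, 5.66 and 3.90), Gm13401 (4.57, 5.26 and 3.07) and E330009J07Rik (4.63, 5.31 and 2.83) followed the same course. At the other end, the Erbb2 site, upstream of a neuregulin receptor subunit, fell from 4.98 to 2.97 in DP and stood at 3.89 in N, and the site in Ercc3, a helicase of DNA repair, went from 4.85 to 3.47 and 3.88. These sites were at their lowest in DP, not in N.

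By position the regions resembled other peaks of the same PP level. In the authors' annotation 34.1% lay inside their nearest gene, against 34.7% of peaks with a PP level of 4.5 or more, and 43.3% lay upstream of it and 22.2% downstream. Within 5 kb of a start site were 15.0%, against 14.8%, and within 1 kb were 34 regions (3.59%, against 3.48%). The median distance to the start site was 27156 bp, and the median width was 161 bp against 166 bp. Of the 624 regions that the annotation put outside their nearest gene, 213 (34.1%) lay inside another RefSeq coding gene. The nearest gene is therefore a label of place here. Counted against RefSeq, 55.2% of the regions lay in a coding gene, beside 54.6% of peaks with that PP level and 70.2% of the 5811 peaks that gained 5hmC under the mirrored rule, with a level of 4.5 or more in N and a rise of 0.9 or more.

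Each of the 19 autosomes and the X chromosome held some of the regions. On the autosomes they made up 2.45% to 3.92% of the peaks with a PP level of 4.5 or more, and on the X chromosome 3.35%, or 26 of 775. The mirrored rule gave 6.30 gained peaks for each lost one over all autosomes, with a range of 4.47 to 8.36 by chromosome. On the X chromosome the balance lay the other way, with 26 lost and 10 gained, a ratio of 0.385. The X chromosome was thus outside the autosomal range through its few gains, whereas its share of lost peaks lay within that range.

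Peaks beside the regions were compared with those beside other peaks. Another 5hmC peak lay within 5 kb of 346 regions, and the nearest had a median difference from PP to N of 0.05, the same as beside all peaks with that PP level. Of these neighbours, 11.3% fell by 0.58 or more, beside 10.6%, and 25.1% rose by as much, beside 22.1%. Another member lay within 10 kb of 18 regions (1.90%), and a member lay as close to 1.83% of all peaks with that PP level. The regions were spread over 880 nearest genes: 818 genes had 1, 58 had 2, 3 had 3 and 1 had 4. The 3 regions of Zmat4, a zinc finger gene, went from 5.47 to 4.56, from 4.65 to 3.39 and from 5.37 to 4.34 between PP and N.

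The Neurod6 and Insm1 loci show how neighbouring peaks differed; they were singled out after their values were seen. Neurod6 is a proneural-class transcription factor of maturing cortical neurons, and Insm1 a zinc finger factor of basal progenitors. A site downstream of Neurod6, at chr6:55646515-55646679, fell from 5.30 and 5.02 to 3.28, and a site upstream of it, at chr6:55805336-55805497 and annotated to Ccdc129, fell from 5.26 and 4.74 to 1.69. Between them, over 159 kb, 6 other peaks differed from PP to N by a fall of 0.53 at most, and the peak inside Neurod6 rose from 5.71 through 5.98 to 6.60. At Insm1, the site at chr2:146183915-146184219 stood at 4.79, 4.99 and 2.53, and the site at chr2:146310496-146310624, annotated to Gm14117 and inside Ralgapa2, at 4.86, 2.92 and 1.60. Of the 6 peaks between them, a peak only 7 kb from the first rose from 4.51 through 5.39 to 5.99. Another, near Gm14117, fell from 4.43 to 3.52 and 2.30 but had too low a PP level to count as a member. Gains and losses of 5hmC thus lay side by side at both genes, whose expression rose from 1025 in PP to 14944 in DP and 45981 in N for Neurod6, and from 5905 to 14633 and then back to 8638 for Insm1.

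5mC and 5hmC seldom met at these sites. A 5mC peak overlapped 65 regions (6.86%), against 12.4% of peaks with a PP level of 4.5 or more, 14.2% of all 5hmC peaks and 32.0% of the gained peaks. Among peaks with that PP level, the share was 7.14% at a smaller 5hmC fall of 0.3 to 0.9. It was 25.1% at a rise of 0.3 to 0.9 and 42.5% at a larger rise. The low share is thus not particular to the members, and at members with a 5hmC fall of 2 or more it was 17.1%. At 20 of the 65 (30.8%) 5mC also fell by 0.58 or more from PP to N, where 22.1% of all such overlapping peaks with that PP level fell, and at 4 (6.15%) it rose, where 2.47% rose. The median 5mC difference from PP to N over the 65 was -0.23, close to the -0.21 over all overlapping peaks with that PP level. A deep 5mC loss was another matter: at 14 of the 65 (21.5%) 5mC fell by 2 or more, where 2.84% of all overlapping peaks with that PP level did so. Some of these falls ended at very low 5mC levels in N, as at Syt1 and Trim2 (both 0.47), Adamts20 (0.11), Pdgfra (0.59) and Pvrl1 (0.76). There the size of the log2 fall rests on few reads.

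**Figure D3:**
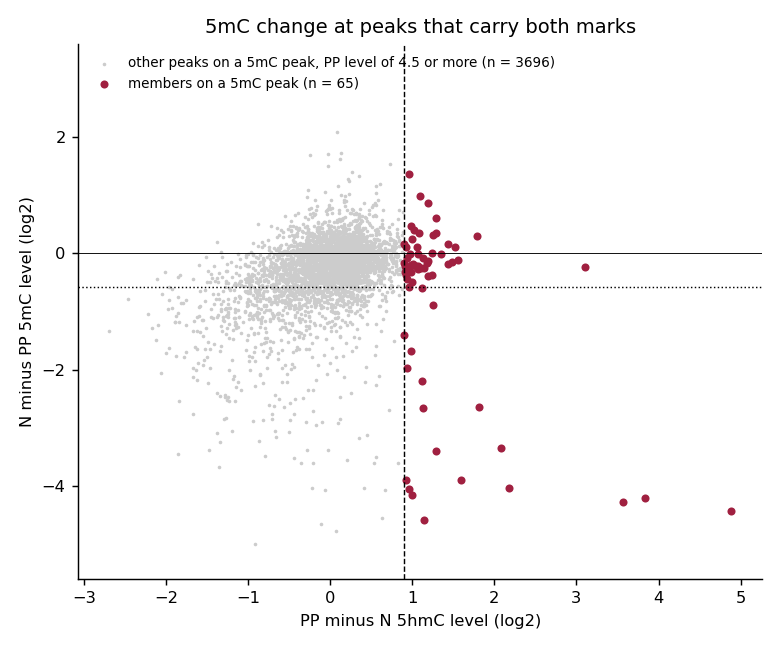
Change in 5mC level from PP to N on the y axis against the fall in 5hmC level on the x axis (both log2), for peaks that carry both marks and have a PP 5hmC level of 4.5 or more. Members lie right of the dashed line at 0.9. Of the 65 members, 45 lie above the dotted line at -0.58 and 14 at or below -2.

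The 20 regions that lost both marks are set beside the other 45. At the 20 that lost both, the median 5mC level went from 4.80 in PP to 4.10 in DP and 2.28 in N, while the median 5hmC level was 4.98, 4.95 and 3.98. 5mC had fallen by 0.58 or more at 14 of the 20 by DP, whereas 5hmC had fallen by as much at 4 of them, and was above its PP level at 6. From DP to N, 5hmC fell at 18 of the 20 and 5mC at 16. These counts use the same 0.58 for both marks, although the sites were set apart by their 5mC fall, which was the larger. As a share of each site's own change from PP to N, the median reached by DP was 31.3% for 5mC and 12.6% for 5hmC. At the other 45 the median 5mC level was 5.10, 5.36 and 5.30, with a median difference of -0.12, and 4 of them rose by 0.58 or more.

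Of the 20 sites that lost both marks, 8 were nearest to genes expressed higher in N than in PP by 0.58 or more. Over all genes of the 5hmC table the share was 31.7%. From these 8 sites, 4 are given here. The site in Syt1, the calcium sensor of synaptic vesicle release, had the largest 5mC fall, from 5.05 and 4.42 to 0.47, with 5hmC at 5.12, 4.99 and 3.97, while Syt1 expression went from 69.6 to 142 and 6547. The site upstream of Neurod2, a proneural-class factor of cortical neurons, at chr11:98333271-98333454, had 5mC at 5.91, 4.92 and 2.50 and 5hmC at 4.57, 5.08 and 3.28, with expression rising from 1455 to 14645 and 44141. At Klhl29 5mC went from 6.08 and 5.11 to 2.19 and 5hmC from 6.31 and 6.01 to 4.72. At Rasgef1b, a guanine nucleotide exchange factor gene, 5mC went from 5.93 through 4.14 to 1.90 and 5hmC from 6.65 through 5.47 to 4.47. 

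Loss of both marks was also found at genes whose expression was lower in N than in PP or differed by less than 0.58. The Adamts20 site went from 4.55 and 3.75 to 0.11 for 5mC, with 5hmC gone in N as given above, and the Trim2 site from 4.76 and 2.46 to 0.47. Trim2 expression was 19407, 34605 and 24780, highest in DP. Downstream of Pdgfra, the growth factor receptor of oligodendrocyte precursors, 5mC went from 4.75 and 2.53 to 0.59 and 5hmC from 5.09 and 4.43 to 4.10, with expression at 121, 89.8 and 29.6. The site past the end of Emx1, a homeobox gene of the dorsal telencephalon, at chr6:85207101-85207258, dropped in 5mC from 4.33 to 1.57 already in DP and stayed at 1.69 in N, while its 5hmC stood at 6.45, 6.23 and 4.64. Emx1 expression was 4886, 10161 and 4664. Of the 20 genes, 4 were expressed lower in N by 0.58 or more, where 31.6% of all genes of the 5hmC table were. Where the 5hmC fall was 2 or more, 6 of 35 regions lay on a 5mC peak, and 5 of the 6 also lost 5mC, with a median difference of -4.12.

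**Figure D4:**
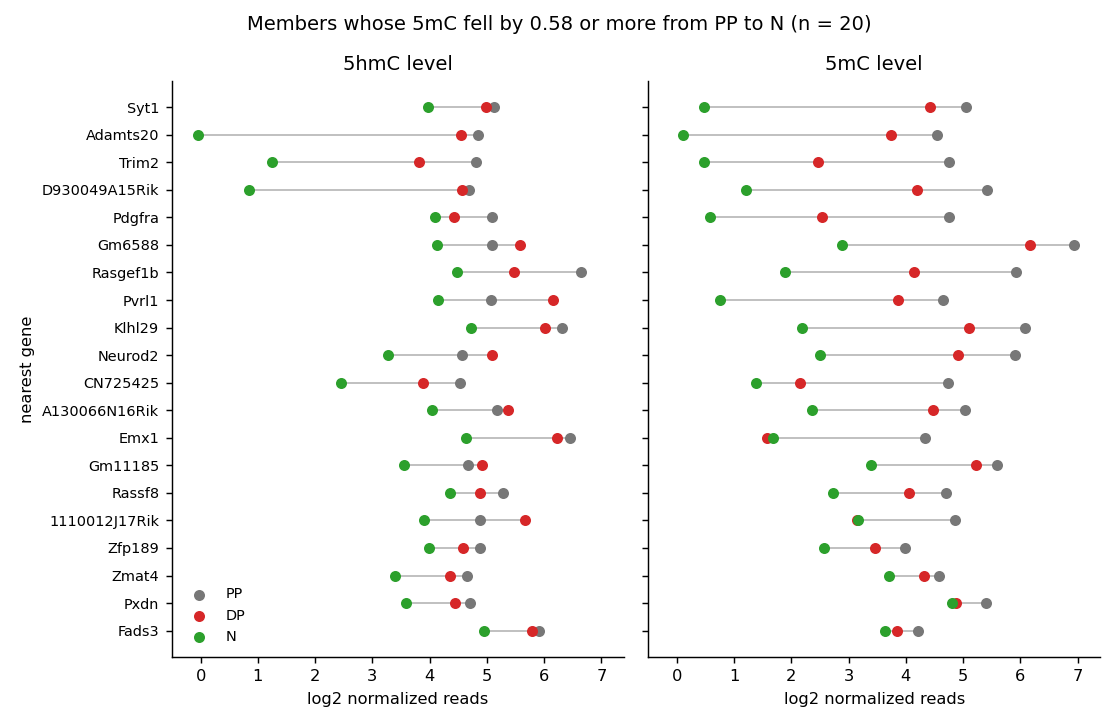
Levels of 5hmC (left) and 5mC (right), both in log2 normalized reads, at the 20 members whose 5mC fell by 0.58 or more from PP to N, named by their nearest gene and ordered by the 5mC fall. Grey, red and green points are PP, DP and N. In 5mC the DP points lie between PP and N or near N, whereas in 5hmC 6 of the 20 DP points lie right of PP.

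Regions where 5mC rose as 5hmC fell were rare. At 2400003C14Rik the 5mC level was 3.03, 2.80 and 4.39, with 5hmC at 4.71, 4.11 and 3.75. At Gm8730 it was 3.97, 4.87 and 4.95, with 5hmC at 4.75, 4.72 and 3.65. In Usp12, a deubiquitinase gene, it was 5.62, 6.23 and 6.49, with 5hmC at 5.49, 5.39 and 4.30. At Gm8730 and Usp12, 5mC rose mainly by DP and 5hmC fell mainly after it.

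Expression of the nearest genes went both ways. Counting each of the 880 genes once, on a scale of log2(value + 1), 310 (35.2%) were higher in N than in PP by 0.58 or more and 271 (30.8%) were lower, beside 31.7% and 31.6% of all 12848 genes of the table. The median difference was 0.08, against 0.01 over all genes. The genes with the largest drops included Mlc1 (3922, 1287 and 13.6 in PP, DP and N), a membrane protein gene of astrocytes and radial glia, Ccdc80 (3331, 1034 and 18.9) and Mfge8 (10764, 3680 and 67.4), a secreted glycoprotein gene. Those with the largest rises included Glra2 (6.90, 21.3 and 2496), a glycine receptor subunit, Lrfn5 (19.6, 31.1 and 4604), a synaptic adhesion protein, Runx1t1 (60.8, 200 and 12662), a transcriptional corepressor, and the potassium channel gene Kcnma1 (2.80, 12.4 and 743). The 5hmC falls at these 7 sites lay between 0.96 and 1.47. The regions were chosen by the size of that fall, so that the likeness of these values follows in part from the choice. They cannot show whether the fall differed between induced and silenced genes. The Mlc1 site went from 4.78 to 4.57 and 3.83, and the Glra2 site from 5.21 to 4.73 and 4.22.

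The regions were also grouped by where their nearest gene was expressed. DP had covered a median of 31.7% of the fall at the 114 regions whose gene was highest in PP, 26.8% at the 33 whose gene was highest in DP, and 32.5% at the 264 whose gene was highest in N. At the 536 whose gene was highest in no cell type by 0.58 or more it was 38.6%. Members made up 2.78%, 2.96%, 3.05% and 3.26% of the peaks with a PP level of 4.5 or more in these 4 classes.

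Genes of 14 lists were then examined by their role. Over all genes in the 5hmC peak list 6.85% had a member, but genes with a member had a median of 5 peaks and all genes a median of 2, so that the share of peaks with a PP level of 4.5 or more that were members, 3.12% over the table, is the closer measure. Among genes of progenitor identity 5 of 32 had a member (6 of 105 such peaks, 5.71%), and all 5 were lower in N. Here and below, the lists were drawn up by role, so that the direction of expression partly follows from the choice of list. It was not counted for list genes without a member. Hey1 also counts among the Notch pathway genes and Emx2 among the patterning homeobox genes. Slc1a3, the glutamate transporter of radial glia, had 2, of which the site in the gene at chr15:8653763-8654019 went from 4.59 to 3.16 and 2.95 and the site upstream from 4.72 to 4.28 and 3.18. The 5 peaks between them differed by 0.00 to 0.47. Slc1a3 expression was 18015, 5274 and 872. The site of Pard3, a polarity gene, went from 4.65 to 3.93 and 3.47, that of the RNA-binding protein gene Msi2 from 4.54 to 3.76 and 3.47, and that of the homeobox gene Emx2 from 4.63 to 4.55 and 3.56.

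Neurogenic and neuronal genes had members too, although their expression went the other way. Of 36 such genes 8 had a member (8 of 196 peaks, 4.08%), 7 of them were higher in N by 0.58 or more and none was lower. The site in Bcl11b, a factor of subcerebral projection neurons, fell from 6.49 and 5.78 to 4.77, as its expression went from 1528 to 6361 and 51072. In Ncam1, a neural adhesion molecule, a site fell from 6.01 and 5.16 to 3.98. The site in Myt1l, a zinc finger factor of neuronal identity, was at 4.66, 4.93 and 3.42, and that of Nhlh1, a helix-loop-helix factor of newborn neurons, at 5.56, 5.54 and 4.57. The 5hmC of the Insm1, Neurod2 and Myt1l sites was higher in DP than in PP, and that of the Nhlh1 site was nearly the same.

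Among glial genes 3 of 16 had a member (4 of 36 peaks, 11.1%). Nfix, a nuclear factor I gene, had 2, at 5.73, 5.24 and 3.72 inside the gene and 5.55, 4.92 and 4.63 upstream of it. Its expression rose from 30028 to 49157 and 70007, whereas the other 2 genes were expressed lower in N. The Gja1 site, near a connexin gene of radial glia, went from 4.69 and 4.61 to 3.71, as expression fell from 4137 and 4010 to 176. Of 44 patterning homeobox genes 6 had a member (6 of 214 peaks, 2.80%), among them Prox1 with 5.08, 4.98 and 4.07.

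Among signalling genes, 4 of 26 Notch pathway genes had a member (4 of 66 peaks, 6.06%), and all 4 were expressed lower in N. The site upstream of the receptor gene Notch2 went from 5.88 and 5.37 to 4.73 and its expression from 38237 and 16651 to 1155. The site of Maml3, a coactivator of Notch targets, went from 4.66 and 4.44 to 3.11, and that of the target gene Hey1 from 4.76 and 4.46 to 3.82. Of 49 Wnt pathway genes 7 had a member (8 of 181 peaks, 4.42%), of which 5 were lower and 2 higher in N. The receptor gene Fzd7 had 2, at 4.92, 4.31 and 3.61 upstream and 4.82, 3.92 and 3.68 in the gene, and the ligand gene Wnt7b, with 4.74, 4.41 and 3.44, was expressed at 1302, 5309 and 25350. The receptor gene Fzd9 had a site at 5.53, 5.07 and 4.47.

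Of 62 genes of FGF, BMP, TGF-beta, Shh and Hippo signalling 6 had a member (6 of 221 peaks, 2.71%), with the site in Gli2, a transcription factor of the Shh pathway, at 4.79, 4.47 and 3.47 and its expression at 9515, 8697 and 1050. Of 54 axon guidance genes 5 had a member (5 of 272 peaks, 1.84%), of which 4 were higher in N. They included the ephrin gene Efnb2 at 5.22, 5.53 and 3.89 and the netrin receptor gene Unc5d at 5.95, 5.76 and 4.77. Extracellular matrix and ADAMTS genes had 2 members for 75 genes (2 of 222 peaks, 0.901%), and these were Adamts20 and Col11a1, the latter with 4.66, 4.69 and 3.61. Of 33 genes of the cell cycle and replication 2 had a member (2 of 74 peaks, 2.70%): Rrm2, a ribonucleotide reductase subunit, at 4.57, 4.49 and 3.38, and the mitotic kinase gene Aurkb at 4.54, 3.58 and 3.45. Of 49 histone modifier and DNA methylation genes 5 had a member (5 of 104 peaks, 4.81%), with Kdm2a at 5.02, 4.52 and 3.83 and Dot1l at 5.01, 4.35 and 3.88. Of 22 imprinted genes 2 had a member (2 of 51 peaks, 3.92%), Dio3 at 4.57, 4.06 and 3.33 and Snrpn at 4.71, 4.59 and 3.75.

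**Figure D5:**
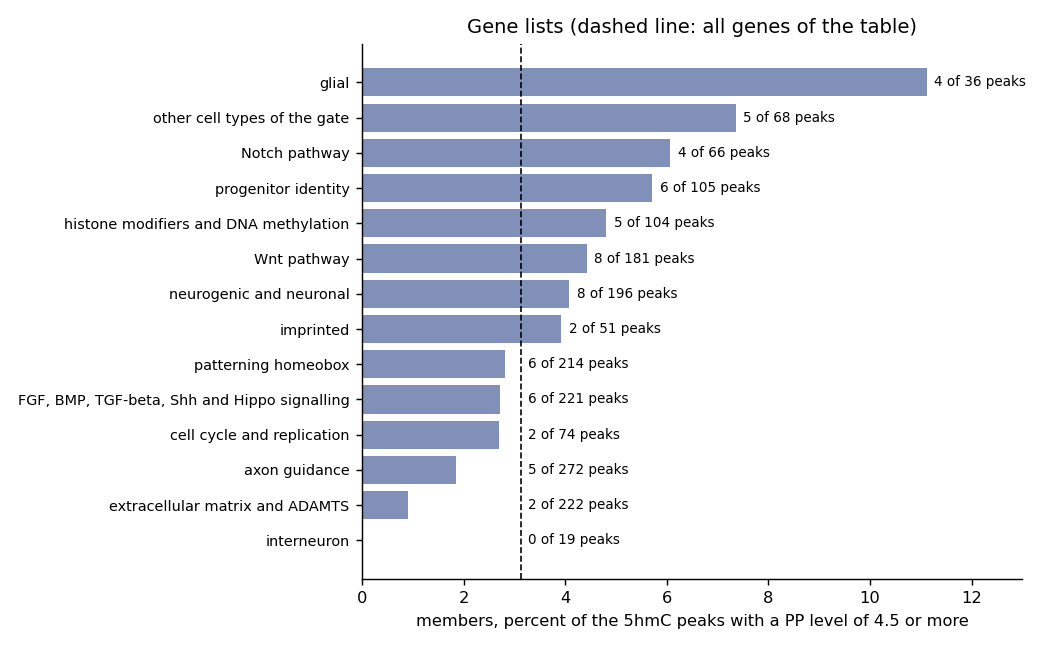
Members as a percent of the 5hmC peaks with a PP level of 4.5 or more, for the peaks nearest to the genes of each list; labels give both counts, and the dashed line marks the 3.12% of all such peaks. Glial genes stand at 11.1% on 4 of 36 peaks and extracellular matrix genes at 0.901% on 2 of 222.

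Markers of other cells that a gate without reporter could hold were also near members. Of 18 such genes 4 had a member (5 of 68 peaks, 7.35%), all markers of endothelium: Flt1 with 2 sites (5.12, 4.88 and 3.68, and 5.20, 5.31 and 3.77), Cldn5 (4.54, 3.88 and 3.13), Pecam1 (5.10, 4.77 and 4.13) and Kdr (5.50, 5.05 and 4.55). The summed expression of the 18 genes was 3310 in PP, 1184 in DP and 401 in N, with 16 highest in PP and none at 0. For the 9 endothelial markers the sum was 759, 469 and 180. None of the 6 interneuron genes with a 5hmC peak had a member (0 of 19 peaks), and the summed expression of the 8 interneuron genes with a value was 7596, 7866 and 15783, highest in N. The part of other cells, on either side, in the loss of 5hmC from PP to N was not tested, and here a change in the mix of cells and a change within cells cannot be told apart.

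Close to start sites, the sites with the largest falls were those upstream of Mfap4 (4.56, 3.92 and 1.91), Evl (4.65, 4.46 and 2.89) and Chd2 (4.97, 4.25 and 3.32) and those inside Dhx8 (4.80, 4.04 and 3.22) and Syt13 (4.81, 4.49 and 3.30). Mfap4, a microfibril gene, was expressed at 859, 9171 and 2732, Evl, a regulator of actin, at 5796, 8962 and 17612, and Syt13, a synaptotagmin, at 639, 219 and 66.9. Loss of 5hmC within 1 kb of the start thus went with a higher, a lower and a hardly different expression in N, the last at Chd2, a chromatin remodeler, with 10901, 12468 and 9408.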

How the data were processed

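5mC and 5hmC were measured by immunoprecipitation of DNA that was barcoded by cell type and pooled. Per the submitters' processing notes and the study's methods, reads were mapped to mm10 with BWA (version 0.7.8-r455), peaks were called with SICER (1.1), those found in all replicates were merged, and those over annotated repeats were left out. The authors normalized reads in the merged peaks by TMM within DiffBind and deposited log2 levels, 1 mean of 3 replicates per cell type. Replicate spread and read counts per region therefore cannot be seen. The deposited distance to the nearest start site is a score in bp, and the deposited expression score of the nearest gene, from the authors' earlier RNA-seq, has no stated scale. The authors' own fold changes and p-values, which hold their comparisons, were not used.

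From these columns, members were those with a PP level of at least 4.5 and a fall of at least 0.9 from PP to N. Differences of 0.58 or more were counted as changes. Expression was compared as log2(value + 1). Peaks of both marks were matched by an overlap of 1 bp or more, and the 5mC peak with the longest overlap was used. RefSeq gene bodies and promoter windows came from GRCm38.p6. Named sites are the largest falls, the highest PP levels, genes with 3 or more members, up to 3 per gene list, the largest falls within 1 kb of a start, the extremes of 5mC and expression change (expression of 100 or more in a cell type), those at the threshold and the extremes of the DP share; others are said to have been chosen after their values were seen, or belong to the 20 sites that lost both marks. The members and lists were chosen with earlier results of these data known. Scripts were tested on simulated data and run in Python 3.11.15 with pandas 2.3.3.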

Additional observations from a re-analysis of the deposited data

How the results depend on the processing

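Since each cell type has 1 mean, no replicate could be left out. No paired analysis was possible because the tables carry no replicate numbers. CpG content and motifs over whole regions, with their alternative windows, were not run, as no genome sequence was at hand. Of 38 alternatives 24 stayed within 1.5 times the count, or within the 95% binomial interval of the share or median. No median changed sign, while counts and shares could not. The number of regions depended on the thresholds: 4237 at a fall of 0.58, 239 at 1.2 and 330 at a PP level of 5. The median share of the fall reached by DP was 39.5% at a fall of 0.58, 28.4% at 1.2, 32.1% at a PP level of 4 and 44.6% on unlogged levels. The share near a start site was 3.59% within 1 kb and 25.9% within 10 kb. The share inside a gene was 55.2% when any RefSeq coding gene counted, an alternative chosen after seeing the data. The share on a 5mC peak was 10.3% when a 5mC peak within 500 bp counted, and 9.21% at a fall of 1.2. The median 5mC difference was -0.056 when centred on all 5mC peaks and -0.12 at a 5hmC fall of 0.58. Centring the 5hmC differences on the median of all peaks left 664 regions.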
